A study of Rattus norvegicus with 54 samples.

Results

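Arntl, Clock and Npas2 encode the activators of the circadian clock. They were chosen by name, as 3 of the 10257 genes in the table of the series, and all 3 are in it. Each value is the expression level of a gene in the heart of 1 rat, in fpkm (fragments scaled to the length of the transcript and the size of the library), so that levels can be compared between genes. The clock of a cell is a loop of transcription and translation. ARNTL, also called BMAL1, pairs with CLOCK or with its paralog NPAS2, and the pair binds E-boxes in DNA to start the transcription of the Per and Cry repressors, of Nr1d1 and Nr1d2, and of output genes such as Dbp and Tef. NR1D1 and NR1D2 repress Arntl and related genes through ROR elements, where the ROR receptors activate, and in the rodent heart the activator genes are best known for high levels around the start of the light phase, opposite to Per2 and Dbp.

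The hearts came from 54 male wildtype Wistar rats, 7 to 8 weeks old at the start, that were housed singly for 5 weeks with 12 h of light and 12 h of dark. The 18 C rats were controls with food and water at all times, the 18 W rats were made to stay awake in a slowly rotating wheel in the light phase on working days with food at all times, and the 18 WRF rats did the same work without access to food during it. Zeitgeber time (ZT) counts hours from lights on. Hearts were taken on a day without work at ZT1, 5, 9, 13, 17 and 21, with 3 rats for each group and time, and hearts were processed with their atria, so a change in the make-up of cells and a change per cell cannot be told apart. Each group falls into 3 series of 6 rats, 1 per time, that are named by rat number (C17 to C22, for example). Nothing in the labels ties a rat to a litter or a day, and p-values measure the spread between these rats. The main tests took the rats as independent, and what rats of a series may share was not modelled.

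The 6 cardiomyocyte markers summed to between 21750 and 50350 fpkm in C rats and to 688 fpkm in WRF51 (ZT9) and 3966 fpkm in WRF62 (ZT5). WRF51 also had 1419 fpkm of Ager, the 1 lung epithelial marker of 4 that is in the table, where no C rat exceeded 4.79. WRF62 had 507 fpkm over 4 T cell and leukocyte markers where the highest C rat had 17.9. The 3 liver markers summed to 1236 fpkm in W21 (ZT17) and to no more than 163 in C rats. The 4 atrial cardiomyocyte markers summed to between 48.3 and 55790 fpkm in C, 45.2 and 62460 in W and 60.9 and 55000 in WRF rats (these 3 libraries aside), so the libraries held very unequal amounts of atrial RNA, and its part in the results was not tested. WRF51, WRF62 and W21 stayed in the tests, and results that rest on them are given without them too, except where the text says otherwise. The sum of all genes ranged from 373100 to 654900 fpkm in C rats and from 466000 to 749600 in WRF rats.

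The promoter of Arntl is shown because the ROR element is the site through which NR1D1 and NR1D2 act on it, and the Clock and Npas2 windows are shown beside it for comparison. The windows are the 250 bases before the start site from RefSeq (rat build GRCr8, which is not the build of the fpkm values), at chr1:176766078-176766327 for Arntl (listed there as Bmal1), chr14:32262500-32262749 for the first of 2 Clock windows, and chr9:48959315-48959564 for Npas2, all on the plus strand. Capitals mark the ROR element of Arntl and a second stretch like it.
Arntl: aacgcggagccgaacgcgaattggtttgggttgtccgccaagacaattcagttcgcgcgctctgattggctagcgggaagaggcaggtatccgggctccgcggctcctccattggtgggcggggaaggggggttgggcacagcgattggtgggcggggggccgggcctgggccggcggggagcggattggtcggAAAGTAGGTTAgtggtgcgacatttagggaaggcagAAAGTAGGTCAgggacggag
Clock: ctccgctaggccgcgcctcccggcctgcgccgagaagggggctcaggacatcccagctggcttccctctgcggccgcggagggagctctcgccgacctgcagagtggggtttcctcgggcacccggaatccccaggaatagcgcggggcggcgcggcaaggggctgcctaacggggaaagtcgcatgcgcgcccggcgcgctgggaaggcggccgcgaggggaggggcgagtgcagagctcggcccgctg
Npas2: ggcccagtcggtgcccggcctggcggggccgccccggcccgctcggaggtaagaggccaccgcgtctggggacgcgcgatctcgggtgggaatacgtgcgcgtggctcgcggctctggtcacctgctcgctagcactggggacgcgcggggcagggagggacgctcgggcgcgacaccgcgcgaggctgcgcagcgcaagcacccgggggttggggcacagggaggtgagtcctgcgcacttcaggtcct

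The Arntl window held the full ROR element as AAAGTAGGTCA, starting 20 bases before the start site. The second stretch, AAAGTAGGTTA, starts 56 bases before it and differs by C10T, counted from 1 at the 5′ end of the element (a search made after the sequence had been seen). Only 8 of 8514 windows of genes in the table (0.094%) held the full element on either strand, and 1 (0.0117%), that of Arntl, held at least 2 stretches within 1 base of the Arntl sequence. The core sites AGGTCA and GGGTCA were in 10.5% and 12.6% of windows, with AGGTCA part of the element in Arntl. Neither Clock window nor the Npas2 window held the full element, either core site, or the E-boxes CACGTG (8.52% of windows) and CACGTT (4.92%), and the nearest match to the Arntl element in them had 7 of 11 bases the same. Of the windows, 64.0% of bases were G or C in Arntl, 74.4% in the first Clock window, 28% in the other, and 74.8% in Npas2. These matches describe letters in these windows and were not linked to the values by any test.

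In C rats Arntl was high around lights on and low around lights off. At ZT1 the 3 C rats had 10.8, 11.5 and 14.0 fpkm, and at ZT13 they had 0.164, 0.232 and 0.397 fpkm. Every C rat at ZT21, ZT1 and ZT5 lay above every C rat at ZT9, ZT13 and ZT17, and the means at the highest and lowest time (12.1 ± 1.70 fpkm, SD, n = 3, and 0.264) were 45.8-fold apart. Npas2, the paralog of Clock, reached its highest mean at ZT5, with 3.65, 3.67 and 4.78 fpkm, and its lowest at ZT13, with 0.286, 0.299 and 0.322 fpkm. The 2 times did not overlap, and their means were 13.3-fold apart. Clock varied far less, with 4.77, 5.48 and 6.30 fpkm at ZT5 and 1.65, 2.24 and 3.31 fpkm at ZT13, a 2.30-fold difference of means.

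**Figure D1:**
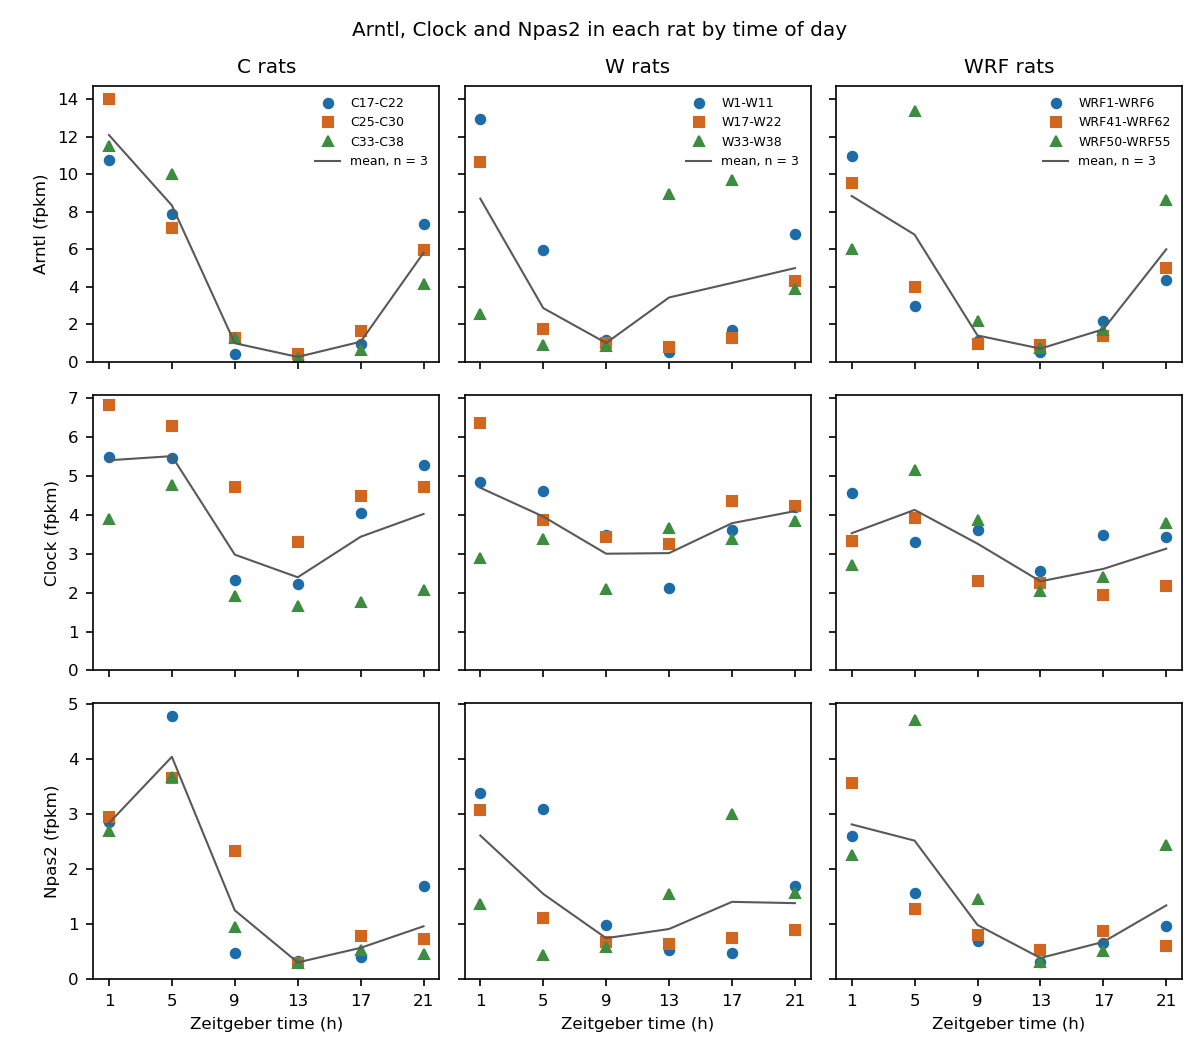
Level (fpkm) of Arntl, Clock and Npas2 against zeitgeber time in C, W and WRF rats, 1 point per rat with a colour and marker for each series, and a line through the mean of the 3 rats at each time. In W rats the series W33 to W38 has its highest Arntl values (8.94 and 9.68 fpkm) at ZT13 and ZT17, where the other series are low.

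Rhythms were tested by fitting a cosine of 24 h to the fpkm of the 18 rats of a group, with the F test of harmonic regression adjusted over all genes (q under 0.05). Relative amplitude is the amplitude of that cosine divided by the mean. In C rats Arntl (relative amplitude 1.26 ± 0.152, SE, peak at ZT1.45 ± 0.344 h, q = 0.000152) and Npas2 (1.06 ± 0.186, peak at ZT3.55 ± 0.540 h, q = 0.00615) were rhythmic, the 4th and 26th smallest p over all genes. Clock missed the threshold (0.392 ± 0.112, fitted peak at ZT1.74 ± 1.05 h, p = 0.00857, q = 0.374). So 2 of 3 genes passed, where 0.848% of all genes did, and all 3 had an unadjusted p under 0.05, as did 5.91% of all genes. Without 1 series, with 12 rats left, Npas2 no longer passed whichever C series was left out (q from 0.197 to 0.243), and Arntl passed only without C25 to C30 (q = 0.150 without C17 to C22 and 0.0545 without C33 to C38), with a relative amplitude of at least 1.25 in each case.

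In W rats none of the 3 genes passed the test. The fitted relative amplitude was 0.638 ± 0.323 for Arntl (p = 0.129), 0.217 ± 0.0747 for Clock (p = 0.0331) and 0.496 ± 0.230 for Npas2 (p = 0.105), and every q was 0.9997. These are 50.7%, 55.4% and 47.0% of the C values. Harmonic regression called 0% of all genes in W rats, with 3.05% at an unadjusted p under 0.05, among them Clock.

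The rats of W33 to W38 were set apart from the other W rats in time rather than in range. From ZT1 to ZT21 their Arntl values were 2.52, 0.908, 0.841, 8.94, 9.68 and 3.87 fpkm. The same times gave 12.9, 5.96, 1.15, 0.539, 1.68 and 6.83 fpkm in W1 to W11, so that ZT13 and ZT17 were the highest hours of W33 to W38 and among the 3 lowest of W1 to W11. Npas2 was also highest at ZT17, with 2.99 fpkm there and 0.435 fpkm at ZT5 in W33 to W38, against 0.472 and 3.09 fpkm in W1 to W11. Clock spanned less in W33 to W38, from 2.09 to 3.85 fpkm.

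Without W33 to W38 the relative amplitude in W rats was 1.20 for Arntl (p = 0.00227, q = 0.692), 0.285 for Clock (p = 0.00622, q = 0.826) and 0.862 for Npas2 (p = 0.00484, q = 0.746). Fitted to W33 to W38 alone, it was 1.03 for Arntl and 0.759 for Npas2, against 1.20 and 0.945 in W1 to W11 and 1.21 and 0.767 in W17 to W22. Of single rats, leaving out 1 of the 18 brought Arntl or Npas2 below an unadjusted p of 0.05 in 1 case each. Clock had an unadjusted p under 0.05 in 14 of the 18.

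In WRF rats the unadjusted p was under 0.05 for all 3 genes and none passed after adjustment. The relative amplitude was 1.02 ± 0.244 for Arntl (peak at ZT1.11 ± 0.742 h, p = 0.000487, q = 0.250), 0.253 ± 0.0805 for Clock (ZT3.43 ± 1.20 h, p = 0.0204) and 0.862 ± 0.233 for Npas2 (ZT2.34 ± 0.881 h, p = 0.00225), with q = 0.568 for the last 2. In this group 6.35% of all genes were under 0.05 unadjusted and 0.039% passed after adjustment. The amplitudes were 80.8%, 64.6% and 81.6% of those in C rats. For 12 WRF rats the title and the time label give different times, and with the time label the fitted peaks were at ZT22.4 for Arntl, ZT0.335 for Clock and ZT23.3 for Npas2. Of these rats, the paper names WRF42, WRF46 and WRF51 in its methods, each with the time of its title.

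Arntl in WRF rats depended on the scale. With the same fit on log2(fpkm + 1), which lets the high rats weigh less, Arntl passed in WRF rats (q = 0.00985) and Npas2 and Clock did not (q = 0.138 and 0.499). The WRF rat with the highest values of all 3 genes was WRF50, with 13.4 fpkm of Arntl, 5.16 fpkm of Clock and 4.69 fpkm of Npas2 at ZT5, where the other WRF rats had 3.00 and 3.96, 3.31 and 3.92, and 1.56 and 1.28 fpkm. Leaving out WRF50 (q = 0.0443) was the only one of 18 single omissions that brought Arntl past the threshold. Without WRF51 and WRF62 the q in WRF rats was 0.235 for Arntl, 0.606 for Clock and 0.305 for Npas2.

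The difference between rhythms was tested in limma on log2(fpkm + 1), with a moderated F test of both terms of the cosine wave in 2 groups. For W against C rats it gave p = 0.000276 for Arntl (adjusted p = 0.404), p = 0.00185 for Npas2 (adjusted p = 0.968) and p = 0.158 for Clock. The adjusted test called 0% of genes, and 1.83% had an unadjusted p under 0.05, with 2 of the 3 activators among them. Without W1 to W11 the limma test of Arntl passed (adjusted p = 0.0180), as 1 of 6 genes. The W rats then left were W17 to W22 and W33 to W38, the series set apart in time. The p-value of this test without W33 to W38 is not given here. For WRF against C rats the unadjusted p in limma was 0.202 for Arntl, 0.249 for Clock and 0.255 for Npas2, with 5.76% of genes under 0.05. For WRF against W rats Arntl had p = 0.0388 in limma (adjusted p = 0.539), Npas2 0.102 and Clock 0.243, with 6.71% of genes under 0.05. Again 0% of genes passed after adjustment, and none of the 3 rhythms was shown to differ between groups.

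Peaks fitted in each series gave the order of the genes within the same 6 rats. Npas2 peaked after Arntl in 9 of 9 series, by 0.911 to 3.17 h. The mean lag was 2.15 ± 0.897 h (SD, 3 series) in C, 1.41 ± 0.389 h in W and 1.11 ± 0.239 h in WRF, and the ranges of C (1.48 to 3.17 h) and W (0.963 to 1.66 h) overlapped while those of C and WRF (0.911 to 1.37 h) did not. With 3 series against 3, the difference of the lags was not tested. WRF41 to WRF62 includes WRF62 and WRF50 to WRF55 includes WRF51, and lags were not fitted without these libraries. Peaks of single series were also uncertain. In WRF41 to WRF62 the lag was 1.04 h and the SE of the Npas2 peak was 2.16 h.

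Clock had no fixed place in that order, with lags behind Arntl from -0.913 to 3.21 h. Its mean lag was 0.400 ± 1.14 h in C, 1.04 ± 1.85 h in W and 2.03 ± 1.29 h in WRF, which lie within the spread of the series. In W33 to W38 the fitted peaks were at ZT16.2 ± 1.02 h for Arntl, ZT17.8 ± 1.02 h for Npas2 and ZT19.3 ± 2.82 h for Clock, shifts of -9.26, -9.77 and -6.58 h from the mean peak of the C series. In that series too Npas2 came after Arntl, by 1.66 h. With times from the titles, the other 5 W and WRF series had Arntl peaks from 1.23 h before to 0.735 h after the C mean of ZT1.45. The time labels of WRF41 to WRF62 and WRF50 to WRF55 are earlier than their titles and would place the peaks of these series earlier.

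**Figure D2:**
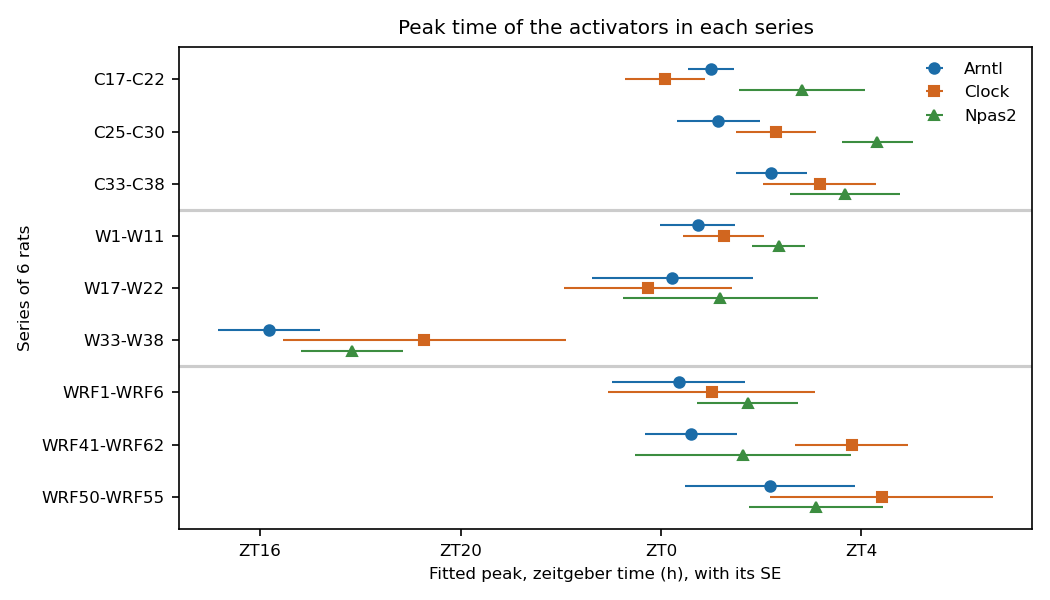
Fitted peak time (zeitgeber time, h, with its SE as bars) of Arntl, Clock and Npas2 in each series of 6 rats. With times from the titles, Arntl peaks between ZT0.221 and ZT2.20 in 8 series and at ZT16.2 in W33 to W38. Npas2 lies to the right of Arntl in every series.

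The size of the daily swing without a wave form was read from times 12 h apart, in a limma fit with 1 mean per group and time on log2(fpkm + 1), a scale that understates folds of low values. In C rats Arntl was higher at ZT1 than at ZT13 by 3.37 ± 0.53 (SE; limma adjusted p = 0.00138), and Npas2 was higher at ZT5 than at ZT17 by 1.68 ± 0.35 (limma adjusted p = 0.0372). For ZT1 against ZT13, 0.039% of genes passed in C rats, for ZT5 against ZT17 0.117%, and for ZT9 against ZT21 0.039% with none of the 3 activators. Clock differed by 0.92 ± 0.27 between ZT1 and ZT13 (limma p = 0.00178, adjusted p = 0.477). Left without any 1 of the C series, neither difference passed (adjusted p of at least 0.230 in limma), with the sizes at least 3.34 for Arntl and 1.50 for Npas2. Npas2 also missed the threshold without W17 to W22 (0.0675) or WRF1 to WRF6 (0.0723), and with the time label in place of the titles (limma adjusted p = 0.0797).

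In W rats the ZT1 to ZT13 difference was 1.45 ± 0.53 for Arntl, 0.91 ± 0.35 for Npas2 and 0.48 ± 0.27 for Clock, and 0% of genes passed. In WRF rats it was 2.50 ± 0.53 for Arntl (limma p = 2.70e-05, adjusted p = 0.277), 1.45 ± 0.35 for Npas2 (adjusted p = 0.338) and 0.44 ± 0.27 for Clock, again with 0% of genes passing, and 0.0195% passed between ZT9 and ZT21. All groups share 1 estimate of the spread, and without W33 to W38 the SE of the WRF difference of Arntl was 0.34. Both Arntl (limma adjusted p = 0.000149) and Npas2 (0.0495) then passed in WRF rats, as did Arntl in W rats, at 2.93 ± 0.41 (limma adjusted p = 0.000364), among 6 genes passing in WRF and 2 in W rats.

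No gene of the table differed between W and C rats, or between WRF and C rats, at any single time (0% of tests in limma after adjustment). The largest differences of the activators were at ZT5, where W rats were lower by 1.48 ± 0.53 on the log2 scale in Arntl (limma p = 0.00744) and by 1.11 ± 0.35 in Npas2 (limma p = 0.00254). The 3 W rats had 0.908, 1.73 and 5.96 fpkm of Arntl there, all below the 7.15, 7.87 and 9.99 fpkm of C rats, and 0.435, 1.11 and 3.09 fpkm of Npas2, below the C rats as well. At this time 0.955% of genes had an unadjusted p under 0.05. At ZT13 W rats were higher by 1.26 ± 0.53 in Arntl (limma p = 0.0211, where 0.77% of genes were under 0.05), with 0.539, 0.812 and 8.94 fpkm against at most 0.397 in C rats. The highest of them was the W33 to W38 rat, and the other 2 W rats lay above the C rats too. In WRF rats all 18 differences from C rats had an unadjusted p over 0.05. Without WRF50 to WRF55 Npas2 was lower at ZT5 by 1.05 ± 0.36 (limma adjusted p = 0.0396), with 1751 of 10257 genes passing there. The WRF rats then left at ZT5 were only WRF2 and WRF62, the library rich in leukocyte markers. With all series, 1799 genes had an unadjusted limma p under 0.05 between WRF and C rats at ZT5, and 300 without WRF62.

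With times pooled, no difference in the level of the activators was detected among the groups. Arntl had a median of 2.90 fpkm (0.164 to 14.0) in C, 2.13 (0.539 to 12.9) in W and 2.59 (0.510 to 13.4) in WRF rats. Clock had 4.27 (1.65 to 6.84), 3.65 (2.09 to 6.36) and 3.32 fpkm (1.93 to 5.16), and Npas2 0.862 (0.286 to 4.78), 1.05 (0.435 to 3.37) and 0.913 (0.310 to 4.69). The Kruskal-Wallis test over 18 rats per group (scipy, chi-square approximation) gave p = 0.968 for Arntl, 0.190 for Clock and 0.914 for Npas2. None of the 3 passed, where 9.17% of genes passed after adjustment and 28.8% had an unadjusted p under 0.05. The log2(fpkm + 1) difference in limma between W and C rats was -0.01 for Arntl (95% interval -0.76 to 0.74), 0.00 for Clock (-0.26 to 0.25) and -0.04 for Npas2 (-0.47 to 0.39). Between WRF and C rats it was 0.03 (-0.72 to 0.78), -0.20 (-0.46 to 0.05) and -0.06 (-0.49 to 0.36).

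The level of Clock moved with the series. Its mean over 6 rats was 5.06 fpkm in C25 to C30, 4.14 in C17 to C22 and 2.68 in C33 to C38, while Arntl had 5.07, 4.58 and 4.63 fpkm in the same rats. Without C33 to C38 the level of Clock differed among the groups (Kruskal-Wallis adjusted p = 0.0439), at -0.41 ± 0.12 in WRF against C rats (limma adjusted p = 0.0107). Without that series 2757 of 10257 genes passed the Kruskal-Wallis test and 2874 the limma test of WRF against C rats. What set C33 to C38 apart was not tested.

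By level the order of the genes changed through the day. Npas2 was the lowest by mean in each group, at 1.66 ± 1.45 fpkm (SD, n = 18) in C, 1.43 ± 1.01 in W and 1.45 ± 1.22 in WRF, and only 10.3% of genes in the table had a lower mean in C rats. Arntl (4.76 ± 4.62, 4.20 ± 3.99 and 4.24 ± 3.93 fpkm) and Clock (3.96 ± 1.65, 3.76 ± 0.983 and 3.16 ± 0.915 fpkm) did not differ in mean beyond their spread. Clock was above Npas2 in 18 of 18 C, 18 of 18 W and 17 of 18 WRF rats, the exception being the WRF rat at ZT1 of WRF41 to WRF62 (3.33 against 3.56 fpkm). Arntl was above Clock in 9, 8 and 8 rats, and above Npas2 in 14, 18 and 18. Npas2 made up a median of 23.5% of the RNA of the 2 partner genes in C rats (8.29 to 46.6%), 22.2% in W (11.4 to 46.9%) and 25.3% in WRF rats (10.8 to 51.7%).

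Ratios of 2 genes in the same rat do not depend on the scaling of its library. In C rats the ratio of Arntl to Clock had a median of 2.05 at ZT1 (1.96 to 2.94) and of 0.120 at ZT13 (0.0731 to 0.141). Arntl to Npas2 was highest at ZT21, with a median of 8.19 (4.33 to 9.12), 4 h before the highest time of Arntl itself, and lowest at ZT13 and ZT9 (0.809 and 0.855). Clock to Npas2 was lowest at ZT5, with a median of 1.30 (1.15 to 1.73), and highest at ZT13, with 6.94 (5.76 to 11.1).

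A permutation test of the 24 h F statistic (100000 resamples, n = 18) was run for 3 ratios in 3 groups, with Benjamini-Hochberg adjustment over these 9. In C rats it gave the smallest p the resamples can give, 1e-05, for both Arntl ratios, and permutation p = 0.00013 for Clock to Npas2. In WRF rats the permutation p was 1e-05, 0.00044 (Arntl to Npas2) and 0.00057 (Clock to Npas2). In W rats Arntl to Npas2 passed (permutation p = 0.0253, adjusted 0.0325), and Arntl to Clock (p = 0.062, adjusted 0.0697, by permutation) and Clock to Npas2 (permutation p = 0.330) did not. The amplitude of log2 Arntl to Clock was 2.22 ± 0.18 in C, 0.98 ± 0.37 in W and 1.58 ± 0.15 in WRF. Without W33 to W38 the W amplitude was 1.56 and all 3 ratios passed in W rats (adjusted 0.00063, 0.000889 and 0.0107, permutation). Without W1 to W11 or W17 to W22 none did, with Arntl to Npas2 at adjusted 0.341 and 0.218 (permutation).

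**Figure D3:**
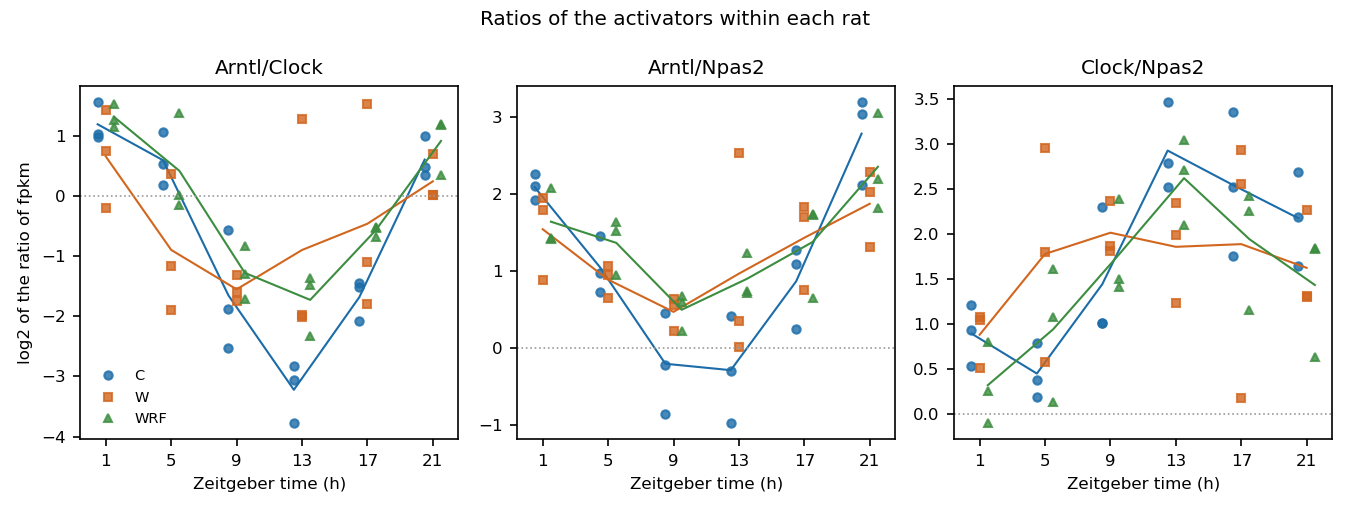
Log2 of the ratio of fpkm of 2 activators in the same rat against zeitgeber time, 1 point per rat and a line through the mean of 3 rats, for C, W and WRF rats. The lowest Arntl/Clock values (-3.77 in the lowest rat) are those of C rats at ZT13, while the dotted line marks equal levels.

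Between groups, the mean log2 ratio was compared by a 2-sided permutation test that exchanged rats only within a time, for 9 comparisons. Arntl to Clock was higher in WRF than in C rats by 0.54 (permutation p = 0.00907, adjusted 0.0816), at 5 of 6 times. It so missed the threshold after adjustment. With times pooled the SE of this difference was 0.49, which includes the daily swing that the exchange within times leaves out. The largest difference was at ZT13, where WRF rats had ratios from 0.198 to 0.388 and C rats from 0.0731 to 0.141, without overlap. Without C33 to C38 the difference was 0.78 and passed (adjusted 0.00387, permutation), and without WRF1 to WRF6 it was 0.73 (adjusted 0.0238, permutation). It was smaller without C17 to C22 (0.35, adjusted 0.745) or WRF50 to WRF55 (0.39, adjusted 0.688), and with 1 fpkm added to each gene (0.24, adjusted 0.558), by the same permutation test. The adjusted value was 0.455 without C25 to C30, 0.283 without WRF41 to WRF62 and 0.658 with the time label. Without W33 to W38 the WRF to C difference had an adjusted value of 0.0419, and that of WRF to W rats, 0.52, the same. The other differences had a permutation p of at least 0.110, and all were within 0.33 on the log2 scale.

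The genes that the activator pair acts on through E-boxes peaked at other hours than Arntl in C rats. Of 13 such targets listed from knowledge of the clock, 11 are in the table. In C rats 8 of 11 were rhythmic at q under 0.05, 0 in W and 4 in WRF, and 11, 1 (Dbp) and 11 had an unadjusted p under 0.05. Over all genes the shares were 0.848%, 0% and 0.039% at that q, and 5.91%, 3.05% and 6.35% unadjusted. In C rats Per2, a repressor of the pair, peaked at ZT15.6 (relative amplitude 0.816 ± 0.129), Tef, an output factor, at ZT13.6 (0.606 ± 0.0696), Dbp at ZT10.4 (1.24 ± 0.266) and Nr1d1, a repressor of Arntl, at ZT8.22 (1.16 ± 0.184). Cry1, another repressor of the pair, peaked at ZT20.2 (0.441 ± 0.0617), and Per1, Ciart and Nr1d2 between ZT10.3 and ZT13.8. The 4 that passed in WRF rats were Per3 (0.853 ± 0.140), Nr1d2 (0.665 ± 0.0981), Dbp (0.888 ± 0.146) and Tef (0.585 ± 0.0832). They were the only genes of the table called in that group. Without WRF51 and WRF62, 1 gene of the table was called, and without any 1 WRF series 0 were.

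Relative amplitude was lower in W than in C rats for 3 of 3 activators and 11 of 11 targets, and for 57.1% of all genes. It was lower in WRF than in C rats for 3 of 3 activators, 9 of 11 targets and 19.9% of all genes. The median over all genes was 0.0806 in C, 0.0727 in W and 0.196 in WRF. Both comparisons use the same C rats. The W values include W33 to W38, whose peaks lay apart from those of the other W series. Without that series the W relative amplitude was 1.20 for Arntl, 0.285 for Clock and 0.862 for Npas2. In C rats it was 1.26, 0.392 and 1.06. For the targets and for all genes, values without W33 to W38 are not given here. The shares and medians in WRF rats include WRF51 and WRF62 and were not computed without them. In limma 3167 genes had an unadjusted p under 0.05 between ZT9 and ZT21 in WRF rats, and 420 without these libraries. Without them the relative amplitude in WRF rats was 1.01 for Arntl, 0.252 for Clock and 0.900 for Npas2. The median over the targets was 0.747 in C, 0.305 in W and 0.665 in WRF.

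**Figure D4:**
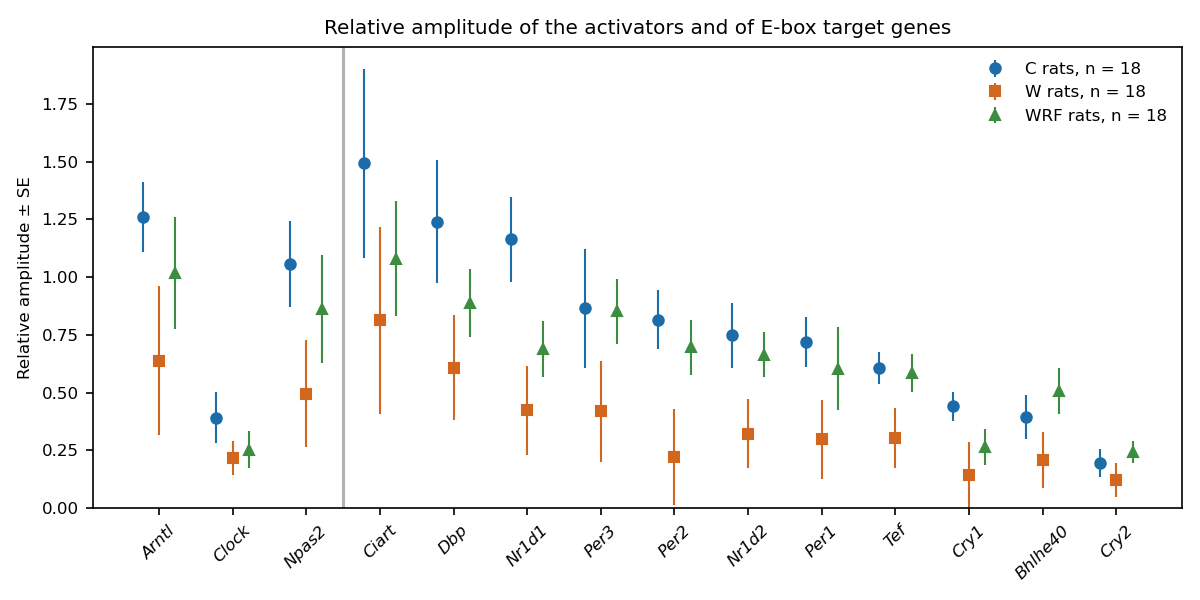
Relative amplitude (amplitude of the 24 h cosine divided by the mean, with its SE as bars) of the 3 activators, left of the grey line, and of 11 E-box target genes in C, W and WRF rats, n = 18 each. The W value lies below the C value for each of the 14 genes, and the WRF value lies above it for Cry2 and Bhlhe40. The W values include the series W33 to W38, whose peaks lay apart from those of the other W series.

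Of 6 genes of the ROR element arm, 3 are in the table. All 3 passed in C rats, with Nr1d1, Nr1d2 and Nfil3, a repressor of D-box genes (relative amplitude 0.560 ± 0.0935, peak at ZT22.2), 0 passed in W rats, and 1, Nr1d2, passed in WRF rats. For W against C rats all 3 had an unadjusted p under 0.05 in the limma test of rhythms, as did 9 of 11 E-box targets and 1.83% of all genes, with none passing after adjustment. Nr1d1 and Nr1d2 are in both lists, so these counts overlap.

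Of 23 genes for enzymes and cofactors that act on the activator proteins, 17 are in the table, and 1 was rhythmic in C rats, Usp2, a ubiquitin protease (relative amplitude 0.434 ± 0.0657, peak at ZT14.0, q = 0.00699). None passed in W or WRF rats, and 2, 0 and 3 of the 17 had an unadjusted p under 0.05 in C, W and WRF rats, beside 5.91%, 3.05% and 6.35% of all genes. Of 16 other genes of the bHLH-PAS family, to which the activators belong, 6 are in the table, and none was rhythmic in any group (none with an unadjusted p under 0.05 either). In level, 1 of them differed among the groups, Epas1, a hypoxia-inducible factor, with medians of 56.0, 45.3 and 36.9 fpkm in C, W and WRF rats (Kruskal-Wallis adjusted p = 0.0458, passed by 9.17% of all genes). Without WRF41 to WRF62, or without WRF50 to WRF55, 0 genes of the table passed this test, so Epas1 did not either. Its value without only WRF51 and WRF62, where 659 genes passed, is not given here. With all rats, no E-box target, ROR arm gene or enzyme passed the Kruskal-Wallis test.

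Over the 54 rats the activators correlated with each other on log2(fpkm + 1), as a description of points that share times, groups and libraries. Pearson r was 0.854 for Arntl and Npas2 (0.813, 0.900 and 0.886 within C, W and WRF rats), 0.670 for Arntl and Clock, and 0.691 for Clock and Npas2. Genes with placeholder symbols (LOC, RGD and the like) were left out of all ranks by r. Among the others Npas2 was the gene most like Arntl. It was followed by Leo1, a subunit of the PAF1 complex (r = 0.810), Dusp5, a phosphatase of ERK (0.748), Fam220a (0.717) and Adam19, a membrane protease (0.704). Arntl was the gene most like Npas2, followed by Col5a3, a collagen chain (0.829), Thra, a thyroid hormone receptor (0.802), Mmp14, a membrane metalloproteinase (0.742), and Adam19 (0.724). The lowest r for Arntl was with Tef (-0.886), Dbp (-0.860) and Per3 (-0.822), and for Npas2 with Rhobtb1 (-0.806), Per2 (-0.801) and Tef (-0.791).

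Clock had other neighbours. The genes most like it were Ypel2 (r = 0.820), Rhobtb3 (0.812), Ptpn4, a tyrosine phosphatase (0.807), Stxbp6 (0.801) and Nfat5, a factor of the osmotic stress response (0.801), none of which is in a clock list. Within C rats these ranged from 0.878 to 0.940, and within W rats from 0.484 to 0.697. The lowest r was with Klhdc3 (-0.753), Rnaseh2a, a subunit of ribonuclease H2 (-0.731), and Mrpl2, a protein of the mitochondrial ribosome (-0.701). Of the 8 genes, none is among those named for Arntl or Npas2.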

How the data were processed

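RNA-Seq of heart was made in 54 rats (C, W and WRF, 18 each). The authors aligned the reads to rn6 with TopHat2, estimated FPKM with Cufflinks, and deposited genes above 1 fpkm in at least 18 rats; versions are not given in the sources used here. The deposited FPKM values were used without further scaling, and 0 columns had no sample. How many reads lie behind an FPKM value is unknown. The members and lists, and the rule for named genes, were chosen with earlier results of these data known.

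Times came from the sample titles, which differ from the time label in 12 WRF rats. Rhythms were fitted with numpy 2.4.6 and scipy 1.17.1 (Python 3.11.15, pandas 2.3.3), groups were compared with limma 3.58.1 (R 4.3.3) with a variance trend on log2(fpkm + 1) and with the Kruskal-Wallis test, and p-values were adjusted over all 10257 genes (Benjamini-Hochberg). Ratios were tested with 100000 permutations. Genes named beside the 3 activators were the members of 4 clock lists past a threshold, or up to 4 with the smallest p in C rats. Also named were the 5 genes with the highest and 3 with the lowest r with each activator, placeholder symbols left out. Promoters were scanned on both strands, and 9826 of 10257 symbols matched RefSeq. Of 12 rat numbers shared by C and W rats, 7 pairs had a correlation above 0.1 (-0.224 to 0.698). Unmatched numbers were not correlated for comparison, so this does not settle whether the numbers pair rats. The main tests took the rats as unpaired, with the pairing as an alternative. The statistics were tested on simulated data. The alternatives were another pseudocount, scale, filter, scaling, test, time label and block, and leaving out libraries, series and single rats. Plots were made with matplotlib 3.10.9.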

Additional observations from a re-analysis of the deposited data

How the results depend on the processing

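Counts are of the 3 activators, or of their tests, past the threshold. On log2(fpkm + 1), and with limma on that scale, 1 activator (Arntl) was rhythmic in WRF rats in place of 0. With the times of the other label, 1 in place of 2 differences 12 h apart passed in C rats. The minimum of 5 fpkm planned as a filter left none of the 3 genes and gives no value; a minimum of 1 fpkm was chosen after seeing the data and changed no count beyond 1.5 times. Neither did the pseudocount of 0.1 fpkm, the scaling by size factors, the test of any difference among 6 times, ratios with 1 fpkm added, or leaving out WRF51, WRF62, both, or W21.

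Leaving out 1 series or, for rhythms, 1 rat gave 0 to 2 rhythmic activators in C rats, 0 in W rats and 0 to 1 in WRF rats. It gave 0 to 1 different rhythms between W and C rats, 0 to 1 differences between WRF and C rats at single times, and 0 to 1 differences in level. Differences 12 h apart numbered 0 to 5 in C, 0 to 1 in W and 0 to 2 in WRF rats, and ratios that differed between groups 0 to 2. With 12 rats left in a group, fewer calls follow in part from fewer rats.

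The replicate block, by the 12 rat numbers that C and W rats share, called 0 differences in level. In the 24 rats, with or without this pairing, Clock was higher in W rats by 0.16 on the log2 scale (limma adjusted p = 0.522 with the block), where all rats gave 0.00. The values of Arntl and Npas2 were 0.00 and -0.04. As pairs, the log2 ratios differed by 0.10 (Arntl to Clock), 0.21 (Arntl to Npas2) and 0.12 (Clock to Npas2), with exact sign-flip p of 0.875, 0.576 and 0.750.

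FPKM without counts do not show the depth behind low values, and the Arntl and Npas2 troughs lie below 1 fpkm, where folds are least certain.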
